A study of Mus musculus with 132 samples.

Results

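The cell cycle and replication genes examined here were 46 named genes among the 25146 genes of the count table, followed through 23 RNA-seq libraries of mouse embryonic stem cells (mESCs) differentiating toward blood. They were listed by name, with earlier results of these data known, and comprised 6 genes of the G1/S step, 12 genes of DNA replication, 25 genes of mitosis and 3 inhibitors of cyclin-dependent kinases (CDKs). All 46 had an entry in the table. In the comparisons between stages 45 had enough counts to be tested, and the gene left out was the inhibitor Cdkn2c, which had at most 7 counts in any library.

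The cells were male E14-TG2a mESCs of the 129/Ola background, differentiated in serum-free SP34 medium with BMP4, bFGF and Activin A. Flk1+ mesoderm was sorted at day 4. The sorted cells were cultured on with SCF and VEGF, and hematopoietic progenitor cells (HPCs) were sorted at day 7 as CD41+ CD45- cells that lacked the erythroid antigen Ter119. P1-CTCF-KO and P2-CTCF-KO lines carried a CRISPR/Cas9 deletion of the CTCF binding site next to the P1 or the P2 promoter of Runx1, and wild-type lines carried neither deletion. Each genotype was represented by 3 clonal lines: C6.1, C8.1 and B9.3 (wild-type), E7.1, E7.2 and E9.1 (P1-CTCF-KO), and D2.1, D10.1 and a different E9.1 (P2-CTCF-KO). There were 2 wild-type mESC libraries, which the labels call technical replicates of 1 E14 sample, 3 mesoderm libraries of each genotype, and 4 wild-type, 3 P1-CTCF-KO and 5 P2-CTCF-KO HPC libraries, because B9.3, D10.1 and D2.1 each gave a second HPC library. Comparisons with mESCs therefore rest on technical replicates, whose spread leaves out that between cultures or clones. The gene counts do not check the deletions.

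Progress through the cell cycle is driven by cyclins bound to CDKs. D-type cyclins act with Cdk4 and Cdk6 to inactivate the retinoblastoma protein, which frees E2F factors to switch on cyclin E and the genes of replication licensing and nucleotide synthesis. Genes of G2 and mitosis form a later wave that is read through CHR and CCAAT elements, and CDK inhibitors such as p21 (Cdkn1a) and p27 (Cdkn1b) restrain the engine. Pluripotent cells are known for a short G1 phase, and early embryonic blood progenitors divide fast.

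Promoter sequence was not part of how the members were listed. A RefSeq promoter (GRCm38.p6, 250 bases before to 50 after the start) was matched for 38 of the 46. The CHR letters TTTGAA or TTCGAA, on either strand, were found in 18 of the 21 mitosis promoters (85.7%), against 17.5% of all 18641 promoters of genes in the table. CCAAT was found in 19 of the 21 (90.5%), against 39.2%. The E2F letters TTTCGCGC, TTTGGCGC or TTTCCCGC were in 6 of 11 replication promoters (54.5%) and in 1 of 21 mitosis promoters (4.76%), against 2.48% of all promoters. None of these motifs was in the 3 G1/S promoters matched. A match describes letters and does not show that a factor binds.

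The 250 bases upstream of 5 start sites are shown. Mki67, Cdc20 and Ect2 of mitosis and Mcm7 of replication are described in the contrasts below, and Mcm6, which was called in none of the comparisons, shows the E2F letters of the replication genes. All are written 5′ to 3′ on the gene's own strand, from RefSeq, with motif letters in capitals. In Mcm6 the first capital run holds 2 overlapping E2F matches on opposite strands. Mcm7 has a CHR match beside its E2F match. The windows are chr7:135716380-135716629 (Mki67), chr4:118437344-118437593 (Cdc20), chr3:27153879-27154128 (Ect2), chr1:128359706-128359955 (Mcm6) and chr5:138171884-138172133 (Mcm7), all on the minus strand of GRCm38.p6.
Mki67: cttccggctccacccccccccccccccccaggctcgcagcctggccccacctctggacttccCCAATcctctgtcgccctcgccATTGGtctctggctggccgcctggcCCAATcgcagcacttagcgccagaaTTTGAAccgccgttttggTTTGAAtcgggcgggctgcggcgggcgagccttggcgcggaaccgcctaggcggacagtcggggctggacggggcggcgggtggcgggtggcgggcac
Cdc20: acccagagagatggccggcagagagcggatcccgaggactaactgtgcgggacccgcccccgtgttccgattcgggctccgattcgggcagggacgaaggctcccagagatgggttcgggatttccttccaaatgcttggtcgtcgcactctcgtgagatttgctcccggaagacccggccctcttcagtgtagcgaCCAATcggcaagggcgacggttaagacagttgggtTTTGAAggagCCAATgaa
Ect2: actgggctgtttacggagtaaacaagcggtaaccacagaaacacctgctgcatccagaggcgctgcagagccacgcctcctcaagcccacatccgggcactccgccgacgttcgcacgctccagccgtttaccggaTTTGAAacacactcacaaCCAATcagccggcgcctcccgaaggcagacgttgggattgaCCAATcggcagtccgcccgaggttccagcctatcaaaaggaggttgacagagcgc
Mcm6: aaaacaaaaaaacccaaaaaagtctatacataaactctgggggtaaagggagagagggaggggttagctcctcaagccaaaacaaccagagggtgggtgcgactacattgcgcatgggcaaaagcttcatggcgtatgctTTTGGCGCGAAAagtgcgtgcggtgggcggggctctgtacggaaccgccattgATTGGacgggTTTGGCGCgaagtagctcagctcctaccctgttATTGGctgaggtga
Mcm7: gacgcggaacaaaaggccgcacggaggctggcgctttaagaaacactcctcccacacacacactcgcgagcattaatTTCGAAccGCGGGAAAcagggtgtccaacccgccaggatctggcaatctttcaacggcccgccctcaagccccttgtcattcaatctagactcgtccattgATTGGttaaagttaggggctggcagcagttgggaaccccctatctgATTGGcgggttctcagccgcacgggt

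**Figure D1:**
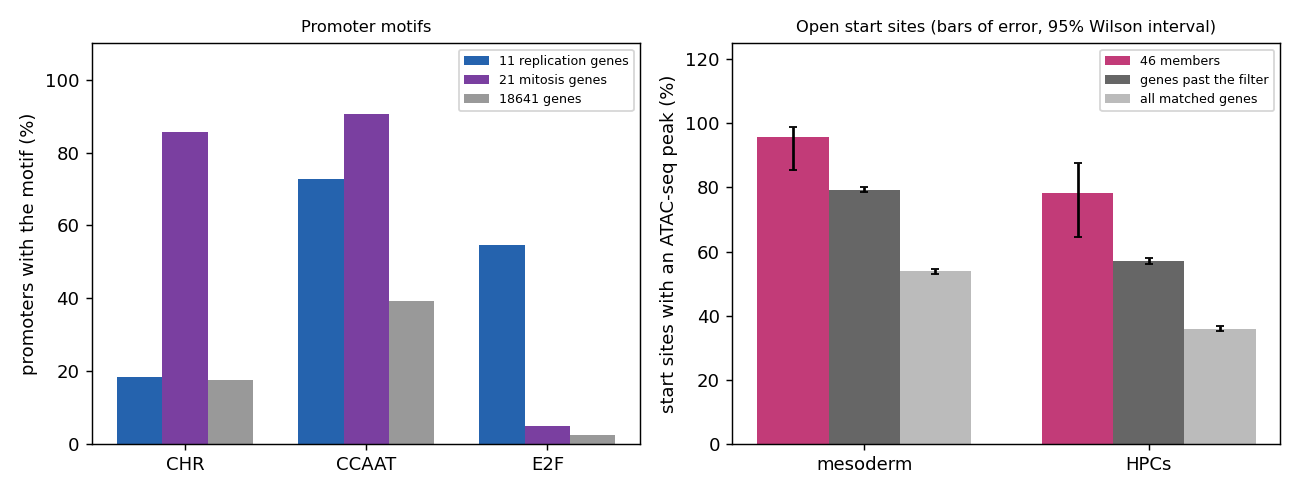
Left, percent of RefSeq promoters holding each motif, for 11 replication genes, 21 mitosis genes and all 18641 genes. Right, percent of start sites with an ATAC-seq peak within 500 bp in mesoderm and HPCs, with 95% Wilson intervals that cover counting error only. CHR letters mark 85.7% of the mitosis promoters and E2F letters 54.5% of the replication promoters, and 95.7% of member start sites had a mesoderm peak against 79.3% of genes past the count filter.

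Start sites of the members were accessible at both differentiated stages. ATAC-seq, which marks open chromatin, gave 1 merged peak list per stage and so has no replicates. The cells for it were E14-TG2a by their labels, and by the study's methods a derivative line with a Venus reporter at Runx1 and a +23 enhancer transgene. In mesoderm 44 of the 46 outermost start sites had a peak within 500 bp (95.7%, Wilson 95% interval 85.5 to 98.8%), against 53.8% of 19955 genes matched and 79.3% of those past the count filter. In HPCs 36 did (78.3%, interval 64.4 to 87.7%), against 35.9% and 57%. The HPC list was shorter, with 29037 peaks against 76766.

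The 8 members with a peak in mesoderm and none in HPCs were Ccnd1, Ccnd2, Cdt1, Tyms, Bub1, Plk1, Aurkb and Cdkn1b. They were 17.4% of the members, against 18.8% of all matched genes and 23.4% of those past the count filter. Of the 8, Ccnd1, Ccnd2 and Cdt1 were also called lower in RNA between these stages in wild-type cells, where 12.5% of all genes were. The Ccnd2 and Cdt1 calls were lost in several of the alternatives given below. The share called lower among all genes with a peak in mesoderm alone was not computed, and a link between peaks and RNA was not tested. The members with no peak in either list were Ccnd3 and Cdkn1a. Each of these has 2 RefSeq promoters, and start sites other than the outermost were not examined. Every replication and mitosis gene had a peak in mesoderm, and in HPCs 10 of 12 and 22 of 25 did.

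RNA without a poly(A) tail was sequenced, which enriches nascent transcripts, and reads were counted over exons and introns together. Levels are given as CPM, the share of a library's counts on edgeR's TMM scale. Ribosomal and multi-locus entries took 68.1 to 76.3% of the counts of the mESC libraries and 87.8 to 91% of the others, so the members had 26726 and 48651 counts in the mESC libraries and 816 to 5790 elsewhere. Of the counts outside these entries, members were 0.55 to 0.628% in mESCs and 0.0944 to 0.173% in wild-type mesoderm. Fold changes against mESCs therefore depend on the TMM scaling. Total counts were 18233679 to 24406998 in mESC and mesoderm libraries and 7805102 to 13513677 in HPC libraries. The mESC libraries were depleted of ribosomal RNA and no depletion is named for the others, so stage and library preparation cannot be told apart in any comparison with mESCs. Of the stage markers, Pou5f1 was at 4.92 and 5.70 CPM in mESCs and at most 1.515 CPM elsewhere, and Itga2b (CD41) at 10.05 to 79.3 CPM in HPCs and at most 1.70 CPM elsewhere. Kdr (Flk1) was at 16.9 to 39.1 CPM in mesoderm, at most 0.108 CPM in mESCs, and at 2.76 to 18.1 CPM in HPCs, where the highest P2-CTCF-KO library overlapped mesoderm.

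The D-type cyclins were the G1/S genes called between wild-type mesoderm and HPCs. Cyclin D1 (Ccnd1, chr7:152115835-152125830 in mm9) was at 4.21 and 4.92 CPM in the mESC libraries. In wild-type mesoderm it was at 2.09 CPM in B9.3, 4.62 CPM in C6.1 and 4.08 CPM in C8.1. In wild-type HPCs it was at 0.430 CPM in B9.3, 0.2499 CPM in C8.1 and 0 in B9.3-2 and C6.1, from 5, 3, 0 and 0 counts. Every HPC library was below every mesoderm library, and mESC and mesoderm libraries overlapped. Ccnd1 fell 18.4-fold from mesoderm to HPCs (log2 fold change -4.20 ± 0.59 SE, edgeR adjusted p = 0.00035), a size that rests on 8 counts in the HPC libraries and was -5.09 without the B9.3 HPC library. Between mESCs and mesoderm it was not called (-0.37 ± 0.45, edgeR adjusted p = 0.57). In these bulk samples fewer cells of a type and less RNA per cell cannot be told apart.

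Cyclin D2 (Ccnd2, chr6:127075726-127101066) was at 0.868 and 1.15 CPM in mESCs. It was at 7.31 CPM (B9.3), 19.6 CPM (C6.1) and 9.67 CPM (C8.1) in wild-type mesoderm, all above both mESC libraries. Its rise there was 11.9-fold (log2 3.57 ± 0.58, edgeR adjusted p = 0.0013), and it was called with each of the 9 libraries left out in turn. In wild-type HPCs it was at 5.58 CPM (B9.3), 4.23 CPM (B9.3-2), 1.68 CPM (C6.1) and 7.91 CPM (C8.1). These overlapped mesoderm, since C8.1 was above the lowest mesoderm library.

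The fall of Ccnd2 from mesoderm to HPCs (log2 -1.30 ± 0.44, edgeR adjusted p = 0.046) was not a stable call. It was lost with clone as a replicate block (-1.40, edgeR adjusted p = 0.12), with the libraries of a clone summed (-1.25, edgeR adjusted p = 0.073) and without the C6.1 mesoderm library (-0.79, edgeR adjusted p = 0.22). It was also lost without either mESC library, the C8.1 mesoderm library, or the B9.3, B9.3-2 or C6.1 HPC library, with edgeR adjusted p from 0.054 to 0.094.

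Cyclin D3 (Ccnd3, chr17:47641999-47736637) was at 1.91 and 2.17 CPM in mESCs. In wild-type mesoderm it was at 3.71 CPM (B9.3), 1.34 CPM (C6.1) and 3.302 CPM (C8.1), a range that enclosed the mESC libraries. In wild-type HPCs it was at 11.9 CPM (B9.3), 7.30 CPM (B9.3-2), 10.9 CPM (C6.1) and 15.0 CPM (C8.1). Every HPC library was above every mesoderm library, and Ccnd3 rose 3.92-fold (log2 1.97 ± 0.33, edgeR adjusted p = 0.0012). Bysl overlaps Ccnd3 on the opposite strand, as other genes overlap Ccnd1, Ccnd2, Ccne2, Ccna2, Kif20a, Cdc20 and Nusap1, and the strand setting of the counting is not given in the sources used here, so reads of these partners cannot be told apart.

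**Figure D2:**
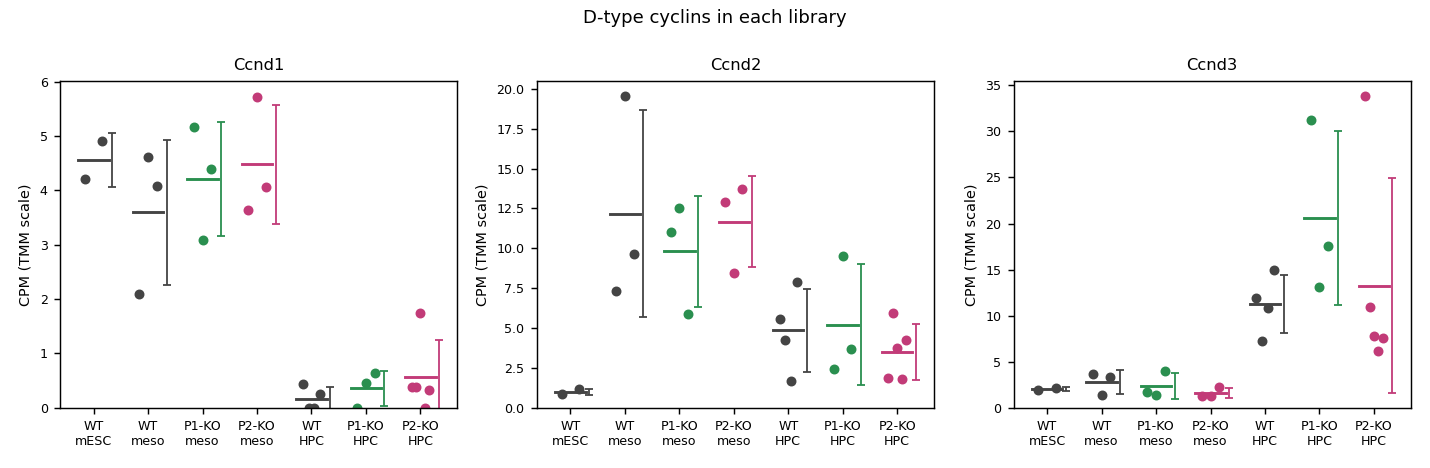
CPM of Ccnd1, Ccnd2 and Ccnd3 in each library (points) of the 7 groups on the x axis, with group means (lines) and SD (bars, cut at 0). Ccnd1 is at or below 1.75 CPM in every HPC library and at or above 2.09 CPM in every other library, and Ccnd3 is at 6.13 CPM or more in every HPC library and at 3.999 CPM or less elsewhere.

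Per kilobase of gene span, the D-type total moved from cyclin D1 to cyclins D2 and D3. Ccnd1 had a median of 88.2% of it in mESCs, 38.9% in wild-type mesoderm and 2.52% in wild-type HPCs. Ccnd2 had 7.64%, 53.8% and 59.8%, and Ccnd3 4.17%, 4.23% and 32.2%. The HPC shares were wide, at 36.6 to 68.4% for Ccnd2 and 31.6 to 63.4% for Ccnd3 among the 4 wild-type libraries. The order of cyclins D2 and D3 depends on the spans, which were 9996 bases for Ccnd1, 25341 for Ccnd2 and 94639 for Ccnd3. By CPM alone Ccnd3 was above Ccnd2 in every wild-type HPC library. Spans include introns, and these shares describe nascent and non-polyadenylated RNA and not protein.

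Of the other G1/S genes, cyclin E1 (Ccne1), which drives entry into S phase, fell from mESCs to mesoderm. It was at 3.95 and 4.54 CPM in mESCs and at 0.696, 1.22 and 0.9004 CPM in wild-type mesoderm (B9.3, C6.1, C8.1). The groups were far apart, and the fall was 4.71-fold (log2 -2.24 ± 0.37, edgeR adjusted p = 0.0013). In wild-type HPCs Ccne1 was at 0.773, 1.66, 0.789 and 0.583 CPM, overlapping mesoderm. Ccne2 and the transcription factor E2f1 were not called in any comparison.

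The question for the wild-type course was how cell cycle genes move as mESCs become mesoderm. Of the 45 members tested 3 were called higher, where 10.7% of all genes were, and 12 lower, where 13.7% of all genes were. A gene was called where its adjusted p was below 0.05 and its level changed by more than 1 on the log2 scale. The higher genes were Ccnd2, Cdt1 and Mki67, and the lower genes were Ccne1, the helicase subunit Mcm7 and 10 mitosis genes. The median log2 fold change was -0.81 over 25 mitosis genes and -0.38 over 12 replication genes, with -0.18 over all 12899 genes tested. With DESeq2's size factors the median over all genes was -0.12 and the same 15 members were called.

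Ect2, which is needed for cytokinesis, was at 16.3 and 14.8 CPM in mESCs and at 6.21, 5.34 and 5.76 CPM in mesoderm (log2 -1.43 ± 0.25, edgeR adjusted p = 0.0021). Cdc20, the activator of the anaphase-promoting complex, was at 5.22 and 4.85 CPM and then 1.97, 1.70 and 1.44 CPM (-1.57 ± 0.30, edgeR adjusted p = 0.0036). Cyclin B1 (Ccnb1) was at 5.858 and 4.002 CPM and then 1.86, 1.82 and 2.16 CPM (-1.34 ± 0.26, edgeR adjusted p = 0.0038). None of these 3 genes overlapped between the stages. The spindle checkpoint kinase Ttk followed (-1.26 ± 0.27, edgeR adjusted p = 0.0056), and Kif20a, Bub1, Aurka, Cenpa, Prc1 and Ube2c fell by 1.09 to 1.37 on the log2 scale.

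These calls leaned on the mESC libraries. Leaving out either of them kept a single library in that group, and the calls over all genes in such fits are not given here. With the first mESC library left out 3 members were called (Ccnd2 higher, Ect2 and Ccne1 lower), with the second left out 5 (adding Cdc20 and Ccnb1), and without the C6.1 mesoderm library 9. Their fold changes moved little: Ccnb1 had the widest range among the named falls, from -1.59 to -1.03 with libraries left out. Without the first mESC library the edgeR adjusted p was 0.05 for Cdc20, 0.083 for Ccnb1 and 0.054 for Ttk.

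Mki67, the gene of the proliferation antigen Ki-67, moved against most mitosis genes between mESCs and mesoderm. It was at 14.14 and 13.96 CPM in mESCs, at 29.4, 31.6 and 28.3 CPM in wild-type mesoderm, and at 52.2 CPM (B9.3), 87.7 CPM (B9.3-2), 108 CPM (C6.1) and 43.9 CPM (C8.1) in wild-type HPCs. The 3 stages did not overlap. It rose 2.11-fold into mesoderm (log2 1.08 ± 0.35, edgeR adjusted p = 0.041). That call was lost without any 1 of the mesoderm libraries (edgeR adjusted p from 0.058 to 0.074) and with all libraries in 1 fit (edgeR adjusted p = 0.081). It was also lost without either mESC library (log2 1.09 and 1.06). With no filter on low counts the change was 0.96, short of the fold limit. From mesoderm to HPCs Mki67 rose 2.45-fold (1.29 ± 0.30, edgeR adjusted p = 0.0071).

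Per kilobase the median of Mki67 was 0.528 CPM in mESCs, 1.11 CPM in wild-type mesoderm and 2.63 CPM in wild-type HPCs. The topoisomerase gene Top2a was not called at any wild-type step (log2 -0.19, 0.20 and 0.01, edgeR adjusted p = 0.61, 0.55 and 0.98), with medians of 0.706, 0.632 and 0.746 CPM per kilobase.

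Cdt1, which loads the replicative helicase onto origins, was the replication gene that turned. It was at 1.11 and 1.28 CPM in mESCs, at 2.50, 3.28 and 3.42 CPM in wild-type mesoderm, and at 1.29, 2.05, 1.78 and 0.750 CPM in wild-type HPCs. Mesoderm was above both other stages in every library. It rose by log2 1.35 ± 0.35 (edgeR adjusted p = 0.015) and fell by log2 1.09 ± 0.32 from mesoderm to HPCs (edgeR adjusted p = 0.025). The rise was lost without either mESC library (edgeR adjusted p = 0.14 and 0.11), and the fall without the C6.1 or C8.1 mesoderm library or the C8.1 HPC library (edgeR adjusted p = 0.061, 0.087 and 0.055) or with all libraries in 1 fit (0.064).

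**Figure D3:**
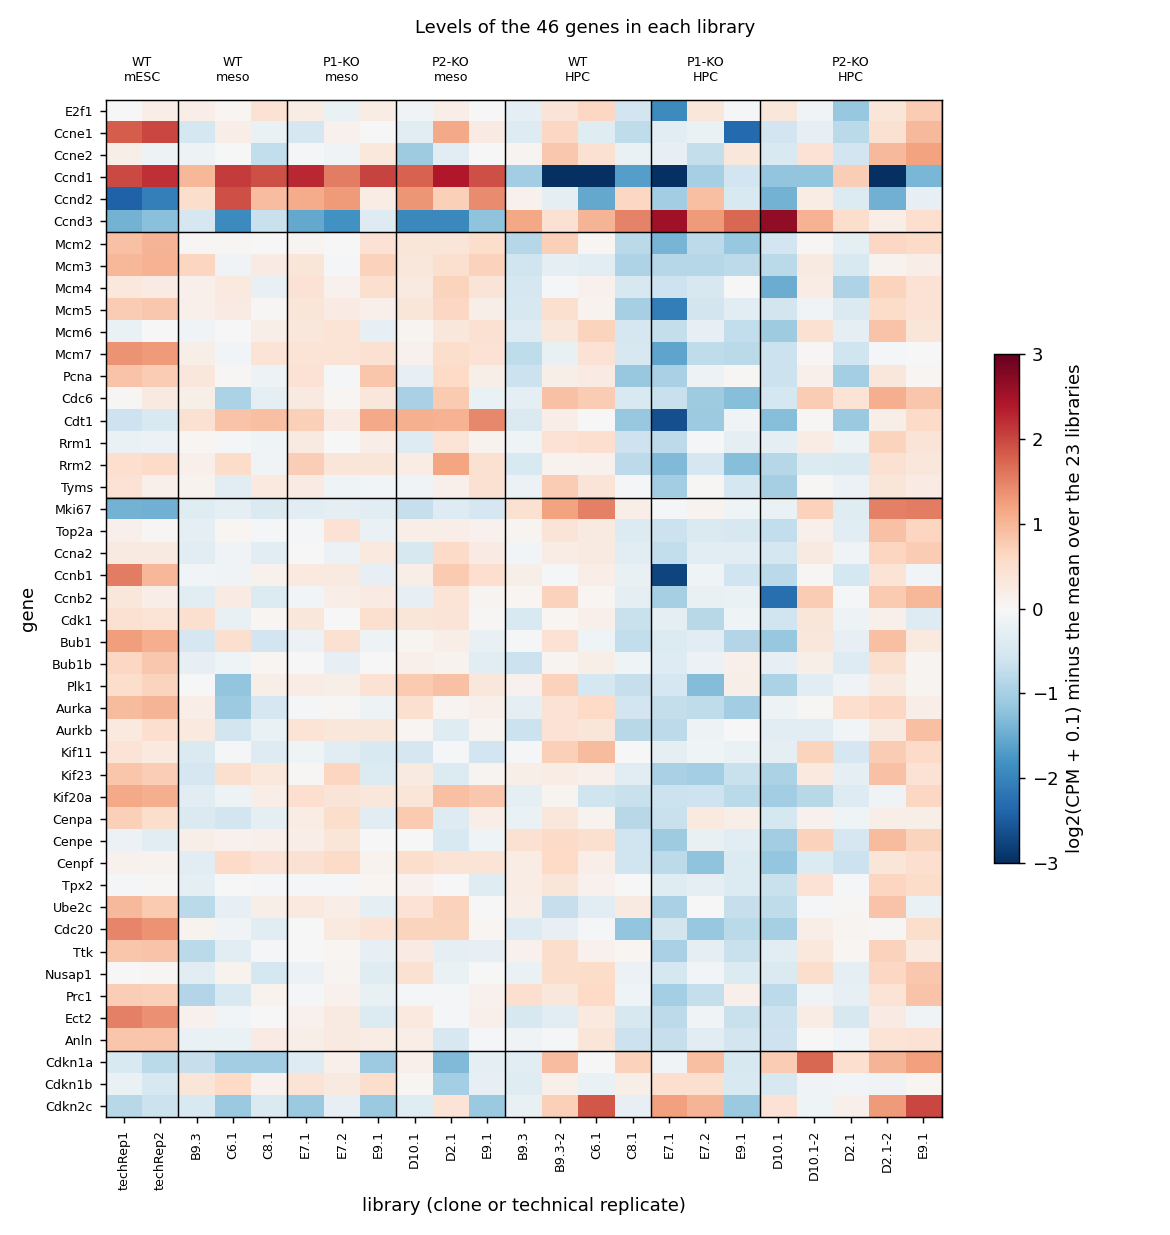
log2(CPM + 0.1) of each of the 46 genes (rows, by role) in each of the 23 libraries (columns), minus the gene's mean over the libraries. The Ccnd1 and Ccnd3 rows change color between mesoderm and HPCs in opposite directions, and the second HPC libraries of B9.3, D10.1 and D2.1 lie above the first in 40, 41 and 41 of the rows.

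From wild-type mesoderm to HPCs 6 of the 45 members were called: Ccnd3, Mki67 and Cdkn1a higher, where 10.8% of all genes were, and Ccnd1, Ccnd2 and Cdt1 lower, where 12.5% were. The median over members was 0.05 on the log2 scale and -0.01 over all genes. Mki67 was the single mitosis gene called, and the median over the 25 was 0.16. Clone as a replicate block gave 5, adding Mcm3 lower and losing Ccnd2 and Cdkn1a.

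Cdkn1a, which encodes the CDK inhibitor p21, was at 0.770 and 0.589 CPM in mESCs, at 0.638, 0.486 and 0.480 CPM in wild-type mesoderm, and at 0.859, 2.18, 1.09 and 1.83 CPM in wild-type HPCs. Every HPC library was above every earlier one, with 10 to 22 counts each. The rise from mesoderm was 2.69-fold (log2 1.43 ± 0.41, edgeR adjusted p = 0.024). It was lost with the clone block (1.27, edgeR adjusted p = 0.085) and without the C6.1 or C8.1 mesoderm library or the B9.3-2 or C8.1 HPC library (edgeR adjusted p from 0.054 to 0.086). Cdkn1b, the gene of p27, was at 0.945 to 1.42 CPM in wild-type HPCs and 1.38 to 1.94 CPM in mesoderm (-0.43 ± 0.29, edgeR adjusted p = 0.31). Cdkn2c, the gene of p18, had 0 to 7 counts per library in all groups and was not tested.

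Across both steps, wild-type HPCs against mESCs, 4 members were higher and 12 lower, where 17% and 25% of all genes were, with medians of -0.55 over members and -0.24 over all genes. The higher ones were Mki67 (log2 2.37 ± 0.36, edgeR adjusted p = 0.00033), Ccnd3 (2.47 ± 0.38, edgeR adjusted p = 0.00033), Ccnd2 (2.27 ± 0.54, edgeR adjusted p = 0.0051) and Cdkn1a (1.09 ± 0.38, edgeR adjusted p = 0.033). Ccnd1 led the lower ones (-4.57 ± 0.58, edgeR adjusted p = 9.9e-05, and -5.45 without the B9.3 HPC library), followed by Ect2 (-1.68 ± 0.24, edgeR adjusted p = 2e-04), Cdc20 (-1.91 ± 0.29, edgeR adjusted p = 0.00032), Ccne1 (-2.22 ± 0.34, edgeR adjusted p = 0.00036) and the helicase subunit Mcm3 (-1.58 ± 0.25, edgeR adjusted p = 0.00038). The other 7 were Mcm2, Mcm7, the sliding clamp Pcna, Bub1, Ccnb1, Kif20a and Ube2c, which fell by 1.02 to 1.54 on the log2 scale. Without the first mESC library 9 members were called, and Ccnd2 (edgeR adjusted p = 0.063) and Cdkn1a (0.11) were not among them. Cdkn1a was also lost without the second mESC library (0.24) and without the B9.3-2 (0.078) or C8.1 (0.091) HPC library.

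Other cell cycle genes were read from fixed lists. From mesoderm to HPCs 14 of 127 tested were higher, where 10.8% of all genes were, and 6 lower, where 12.5% were, with a median of 0.25 against -0.01 over all genes. The retinoblastoma gene Rb1, which restrains E2F, rose from a mean of 1.83 to 23.4 CPM (log2 3.71 ± 0.32, edgeR adjusted p = 2.2e-05). The phosphatase Cdc25b (3.20 ± 0.39, edgeR adjusted p = 0.00014) and the factor E2f2 (3.43 ± 0.44, edgeR adjusted p = 0.00019) rose too. Both kinases that partner D-type cyclins fell, Cdk6 from a mean of 10.3 to 2.85 CPM (-1.82 ± 0.31, edgeR adjusted p = 0.0011) and Cdk4 from 3.69 to 1.42 CPM (-1.39 ± 0.25, edgeR adjusted p = 0.0015), as did Mycn (-1.99 ± 0.38, edgeR adjusted p = 0.0025).

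By list, where the same all-gene shares hold, 6 of 21 E2F, RB and MuvB factors were called higher and 3 lower at that step, and 3 of 13 checkpoint and p53 targets higher. Of 36 kinetochore, spindle and cytokinesis genes tested 3 were higher, and 37 origin and fork genes had a median of 0.22. From mESCs to mesoderm 3 of the 127 other genes were higher, where 10.7% of all genes were, led by Myc (1.52 ± 0.39, edgeR adjusted p = 0.014), Mnat1 and Cdkn1c, and 19 lower, where 13.7% were, led by the MuvB partner Mybl2 (-2.95 ± 0.30, edgeR adjusted p = 0.00013), Rfc5 and Mycn. From mESCs to HPCs 13 were higher and 19 lower, where 17% and 25% of all genes were. The replication-dependent histone genes, 59 in number, had summed medians of 1308 CPM in mESCs, 910 CPM in wild-type mesoderm and 690 CPM in wild-type HPCs. In P1-CTCF-KO HPCs the sum was 500 to 538 CPM, and in P2-CTCF-KO HPCs 348 to 1021 CPM, with 433 to 1010 CPM in the wild-type libraries. In P2-CTCF-KO mesoderm it was 1056 to 1575 CPM (median 1069 CPM), against 632 to 1048 CPM in wild-type mesoderm. The lowest P2-CTCF-KO library was close to the highest wild-type one. P1-CTCF-KO mesoderm was at 590.2 to 948 CPM. These sums were not tested.

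The knockouts ask whether losing a CTCF site beside Runx1 changes these genes. In mesoderm none of the 45 members was called by edgeR in P2-CTCF-KO or P1-CTCF-KO against wild-type cells, or between the knockouts. Of all genes 0% were called higher and 0.0342% lower for P2-CTCF-KO, and 0% in each direction for P1-CTCF-KO and for the knockouts against each other. These all-gene counts depended on the tool and the filter. Against wild-type, P2-CTCF-KO had 3 genes called by edgeR, 164 by DESeq2 (26 higher and 138 lower) and 431 by edgeR with no filter on low counts, and the knockouts differed in 0, 90 and 267 genes. None was a member. At an unadjusted p under 0.05 there were 6, 1 and 1 members by edgeR and 2, 0 and 0 by DESeq2. Of all 8778 genes tested, 1408, 168 and 987 were under that limit by edgeR. P2-CTCF-KO mesoderm had 35 of 45 members above wild-type mesoderm, with a median log2 difference of 0.27, against 0.01 over all genes. The lowest p was that of the kinesin gene Kif20a, at 2.96 CPM (D10.1), 4.41 CPM (D2.1) and 4.07 CPM (E9.1) against 1.80, 2.07 and 2.64 CPM in wild-type mesoderm, with no overlap (0.83 ± 0.23, edgeR adjusted p = 0.15).

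Plk1, a kinase of mitotic entry, was next in P2-CTCF-KO mesoderm (0.90 ± 0.30, edgeR adjusted p = 0.20), at 2.96 to 4.41 CPM against 0.972 to 2.64 CPM. The helicase subunit gene Mcm2 (0.42 ± 0.17) and Cdc20 (0.64 ± 0.27) followed, both with an edgeR adjusted p of 0.27. P2-CTCF-KO mesoderm also had higher sums of 6 pluripotency markers, 3.48 to 8.54 CPM against 0.812 to 1.22 CPM, and of 6 mesoderm markers, 71.3 to 107 CPM against 26.2 to 48.7 CPM. Its 6 endothelial markers summed to 0.482 to 0.750 CPM against 1.46 to 73.0 CPM. The pluripotency sum leaned on Tdgf1, at 2.591 to 4.613 CPM against 0.1201 to 0.9716 CPM in wild-type mesoderm. Pou5f1 was also higher in every P2-CTCF-KO mesoderm library than in wild-type mesoderm. Nanog, Sox2, Zfp42 and Esrrb overlapped wild-type mesoderm, and the Esrrb median was lower, at 0.07403 against 0.2401 CPM. The part of these marker sums in the member values was not tested.

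P1-CTCF-KO mesoderm had 40 of 45 members above wild-type mesoderm, with a median of 0.18 against -0.01 over all genes. Kif20a had the lowest p there too (0.51 ± 0.22, edgeR adjusted p = 1), followed by Cenpa (0.63 ± 0.34) and Aurkb (0.47 ± 0.29) with the same adjusted p, and both comparisons share the wild-type libraries. Between the knockouts the lowest p was that of Cdkn1b, at 1.31, 0.563 and 1.04 CPM in P2-CTCF-KO and 1.70, 1.52 and 1.84 CPM in P1-CTCF-KO mesoderm (-0.73 ± 0.32, edgeR adjusted p = 0.43), followed by Cdt1 (0.51 ± 0.26, 0.50) and Cenpe (-0.34 ± 0.18, 0.51). The D-type cyclins and Cdkn1a differed by -0.80 to 0.68 among the 3 genotypes in mesoderm, and their edgeR adjusted p values were 0.43 or more.

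In HPCs 44 members could be tested, since Ccnd1 was too low, and none was called by edgeR in any of the 3 genotype comparisons, where 0% of all genes were called in either direction. The unadjusted counts under 0.05 were 0 for P2-CTCF-KO against wild-type, 7 for P1-CTCF-KO against wild-type and 12 between the knockouts by edgeR, and 0, 6 and 11 by DESeq2. Of all 7422 genes tested, 145, 260 and 650 were under that limit by edgeR. Of the 44, 34 were above wild-type in P2-CTCF-KO HPCs (median 0.13) and 5 in P1-CTCF-KO HPCs (median -0.49), against all-gene medians of 0.03 and -0.01. For the 12 replication genes the P1-CTCF-KO median was -0.64, with none above wild-type. In P2-CTCF-KO against wild-type HPCs the lowest p values were those of Cdkn1a (0.75 ± 0.36), Mcm3 (0.45 ± 0.23) and Cdc20 (0.52 ± 0.33), all with an edgeR adjusted p of 1.

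**Figure D4:**
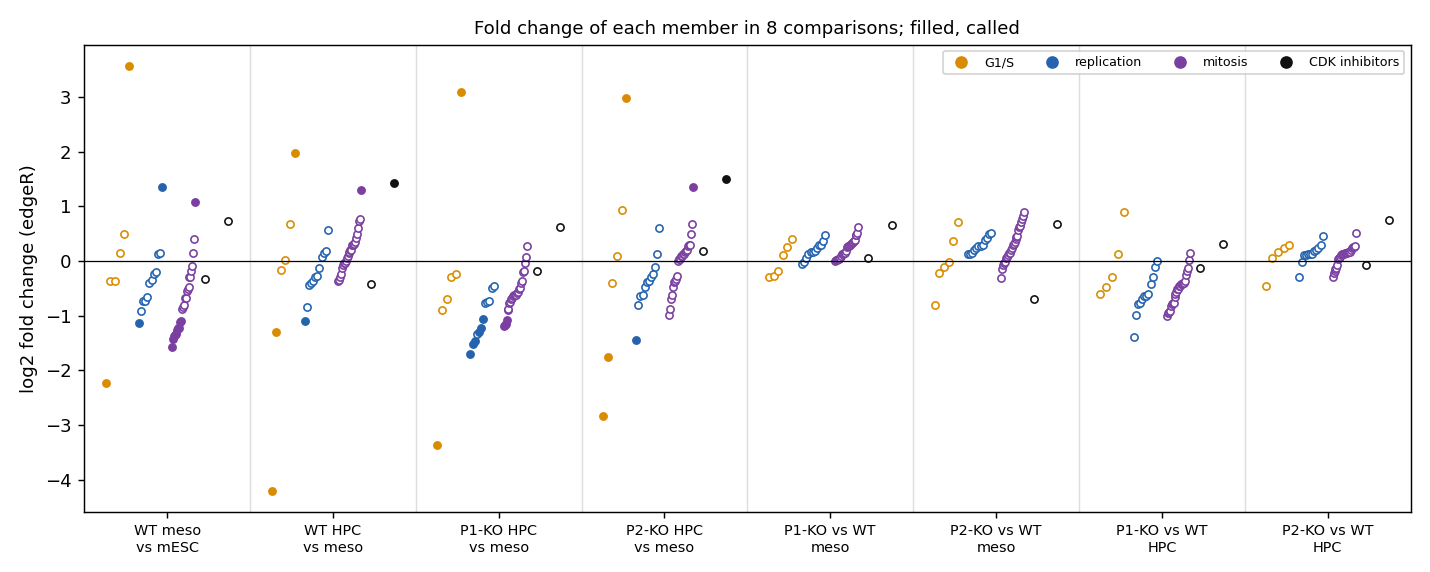
log2 fold change (edgeR) of each tested member in 4 stage and 4 genotype comparisons, colored by role and filled where called. Stage comparisons hold all the filled points, a D-type cyclin lies farthest from 0 in each of them, and replication and mitosis genes lie mostly below 0 in P1-CTCF-KO against wild-type HPCs, where none is called.

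The kinetochore kinase Ttk had the lowest p in P1-CTCF-KO against wild-type HPCs, at 1.42 CPM (E7.1), 2.35 CPM (E7.2) and 1.77 CPM (E9.1) against 3.178, 4.225, 3.156 and 2.998 CPM (-0.82 ± 0.28, edgeR adjusted p = 0.91). Cdc6, which loads the helicase with Cdt1, was at 1.22, 0.895 and 0.760 CPM against 1.63, 3.71, 3.45 and 1.42 CPM (-1.39 ± 0.48, edgeR adjusted p = 0.91). The Aurora kinase gene Aurka came next (-1 ± 0.39, edgeR adjusted p = 0.91). All 3 genes were lower in every P1-CTCF-KO library than in every wild-type one, on 4 to 21 counts per P1-CTCF-KO library. They were picked for their low p values, so this separation is not a further result.

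Between the knockouts 40 of 44 members were higher in P2-CTCF-KO HPCs, with a median of 0.62 against 0.05 over all genes. Cdc6 had the lowest p, at 1.36, 3.46, 2.65, 4.33 and 3.58 CPM in P2-CTCF-KO HPCs (D10.1, D10.1-2, D2.1, D2.1-2, E9.1), all above the 3 P1-CTCF-KO libraries (1.69 ± 0.46, edgeR adjusted p = 0.53). Ttk (0.87 ± 0.27) and Aurka (1.21 ± 0.37) came next, both with an edgeR adjusted p of 0.53. A single library decided this comparison, and the calls over all genes without it are not given here. Without P2-CTCF-KO D10.1, 3 members were called, Cdc6 (1.88, edgeR adjusted p = 0.036) and Kif23 higher and Ccnd3 lower (-1.36, edgeR adjusted p = 0.044).

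In P2-CTCF-KO HPCs Ccnd3 was at 33.8 CPM in D10.1 and at 10.96, 7.75, 6.13 and 7.60 CPM in D10.1-2, D2.1, D2.1-2 and E9.1, while the P1-CTCF-KO libraries were at 31.2, 13.1 and 17.6 CPM. Ccnd1 was at 0 to 0.634 CPM in P1-CTCF-KO HPCs, and in P2-CTCF-KO HPCs at 1.75 CPM in D2.1 and 0 to 0.388 CPM in the others. D2.1 also had the highest endothelial marker sum of the HPC libraries, 54.0 CPM over 6 genes against 8.35 to 24.1 CPM. Its mesoderm marker sum was the highest too, 19.9 CPM over 6 genes against 2.76 to 11.7 CPM. Kdr alone gave 18.1 CPM of that sum, so it describes mainly a single gene. D10.1 had 7.17 CPM of the cardiac gene Tnnt2, with Myh6, Myl7 and Nkx2-5 at 0 in every HPC library. Their part in the cyclin values was not tested.

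HPC libraries of a single clone also differed. In the second library of B9.3, D10.1 and D2.1, 40, 41 and 41 of the 46 members were higher than in the first, by medians of 0.55, 0.80 and 0.82 on a log2(CPM + 0.1) scale. Mki67 was at 52.2 and 87.7 CPM in B9.3, at 33.2 and 61.7 CPM in D10.1, and at 29.6 and 109 CPM in D2.1. The labels mark the second libraries only by a suffix.

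The 25 mitosis genes summed to 159, 222, 238 and 124 CPM in wild-type HPCs (B9.3, B9.3-2, C6.1, C8.1), to 103, 120 and 116 CPM in P1-CTCF-KO HPCs, and to 97.4, 185, 116, 272 and 257 CPM in P2-CTCF-KO HPCs. The 12 replication genes summed to 37.5, 65.4, 63.4 and 32.3 CPM, to 24.1, 37.5 and 35.5 CPM, and to 30.7, 58.8, 39.5, 76.4 and 68.4 CPM. The mitosis sums lean on a single gene. Mki67 alone gave 52.2 and 87.7 CPM of the sums of B9.3 and B9.3-2, and 29.6 and 109 CPM of those of D2.1 and D2.1-2. Sums without Mki67 were not computed. The P1-CTCF-KO mitosis sums were below all 4 wild-type sums and inside the range of P2-CTCF-KO, and no P1-CTCF-KO clone had a second library. The sum of 6 erythroid markers was 63.1, 164, 152 and 97.2 CPM in the wild-type libraries, 131, 202 and 48.8 CPM in P1-CTCF-KO, and 75.1, 182, 29.9, 199 and 217 CPM in P2-CTCF-KO. Of the wild-type and P2-CTCF-KO libraries, the 5 with the highest mitosis sums (185 to 272 CPM) were also the 5 with the highest erythroid sums (152 to 217 CPM), while P1-CTCF-KO E7.2 had the second highest erythroid sum and a mitosis sum of 120 CPM. The sort had removed Ter119+ cells, and the part of erythroid content in the member values was not tested.

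**Figure D5:**
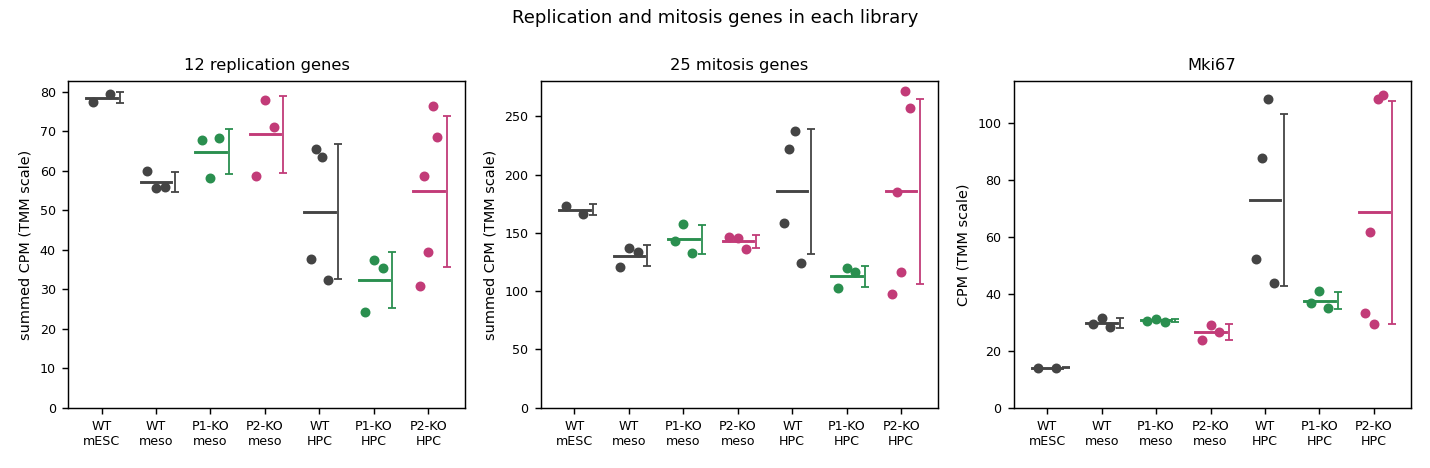
Summed CPM of the 12 replication genes and the 25 mitosis genes, and CPM of Mki67, in each library (points) of the 7 groups on the x axis, with means (lines) and SD (bars). For mitosis the mesoderm libraries lie at 120 to 157 CPM, the wild-type HPC libraries at 124 to 238 CPM, the P1-CTCF-KO HPC libraries at 103 to 120 CPM and the P2-CTCF-KO HPC libraries at 97.4 to 272 CPM. The mitosis sums include Mki67, which is a large part of them in HPCs. In wild-type HPCs against mESCs 7 of the 25 mitosis genes had a positive log2 fold change, with a median of -0.66.

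The step from mesoderm to HPCs was then read within each knockout. In P2-CTCF-KO cells 3 members were called higher, where 16.5% of all genes were, and 3 lower, where 11.7% were, and the 6 genes were those called in wild-type cells. Ccnd3 rose 7.95-fold (log2 2.99 ± 0.58, edgeR adjusted p = 0.00062), Mki67 2.55-fold (1.35 ± 0.38, edgeR adjusted p = 0.0099) and Cdkn1a 2.82-fold (1.5 ± 0.44, edgeR adjusted p = 0.011). Ccnd1 fell 7.13-fold (-2.83 ± 0.60, edgeR adjusted p = 0.0012), Ccnd2 3.36-fold (-1.75 ± 0.48, edgeR adjusted p = 0.0074) and Cdt1 2.72-fold (-1.44 ± 0.41, edgeR adjusted p = 0.0093). Single HPC libraries set the sizes of both leading changes: the Ccnd3 rise was 2.3 on the log2 scale without D10.1, and Ccnd1 fell by 3.98 without D2.1, both still called. The Cdkn1a call was lost without the D2.1 mesoderm library (1.17, edgeR adjusted p = 0.063).

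Ccnd1 in P2-CTCF-KO mesoderm was at 3.65, 5.72 and 4.07 CPM (D10.1, D2.1, E9.1), above all 5 HPC libraries. Cdkn1a was at 1.24, 0.375 and 0.888 CPM in mesoderm and at 1.94, 3.85, 1.61, 2.32 and 2.72 CPM in HPCs, again with no overlap. The mean of Mki67 went from 26.6 to 68.6 CPM.

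In P1-CTCF-KO cells 1 member was called higher, where 16.6% of all genes were, and 11 lower, where 16.1% were. Ccnd3 rose 8.57-fold (log2 3.10 ± 0.60, edgeR adjusted p = 6e-04, and 3.71 without the E9.1 mesoderm library), and Ccnd1 fell 10.3-fold (-3.36 ± 0.81, edgeR adjusted p = 0.0033). The size of the Ccnd1 fall rests on few HPC counts, since the gene was too low to be tested within HPCs. The other falls included 6 replication genes: Mcm7 (-1.46 ± 0.30, edgeR adjusted p = 0.0011), Mcm3 (-1.23 ± 0.29, edgeR adjusted p = 0.0030), the ribonucleotide reductase gene Rrm2 (-1.51 ± 0.39, edgeR adjusted p = 0.0048), Mcm2 (-1.30 ± 0.39, edgeR adjusted p = 0.012), Cdt1 and Mcm5. The mitosis genes Cdc20, Cenpf, Kif20a and Kif23 fell by 1.08 to 1.19 on the log2 scale. Ccnd2, Cdkn1a and Cdkn1b were not called (-0.89, 0.62 and -0.19, with edgeR adjusted p = 0.21, 0.34 and 0.67), nor was Mki67.

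Mcm7 was at 5.17, 5.15 and 5.38 CPM in P1-CTCF-KO mesoderm and at 1.22, 2.24 and 2.15 CPM in P1-CTCF-KO HPCs (E7.1, E7.2, E9.1). Rrm2 was at 5.40, 4.16 and 4.20 CPM and then 1.22, 2.24 and 1.27 CPM. The stages were well apart in both genes, and E7.1 was the lowest HPC library, with 816 counts over the members. Without it 7 members were called, and Mcm2 (-1.14, edgeR adjusted p = 0.054) was not among them. Without the E9.1 mesoderm library Mcm3 (-0.99, edgeR adjusted p = 0.019) fell short of the fold limit. The clone block gave 11 calls, losing Kif23.

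Whether the knockout effect itself differed between HPCs and mesoderm was tested as an interaction. By edgeR none of 45 members was called for P2-CTCF-KO, where 0.0218% of all genes were called in either direction (2 genes by edgeR and 37 by DESeq2), and none for P1-CTCF-KO, where 0% were. For P2-CTCF-KO no member had an unadjusted p under 0.05 by edgeR or DESeq2, where 643 of all 9170 genes did by edgeR. The lowest member p was that of Plk1 (-1.03 ± 0.53, edgeR adjusted p = 0.76). For P1-CTCF-KO 6 members had an unadjusted p under 0.05 by edgeR and 5 by DESeq2, where 306 of the 9170 genes did by edgeR. Ttk (-1.16 ± 0.39), Cdc6 (-1.89 ± 0.69) and Mcm7 (-1.03 ± 0.40) came first (edgeR adjusted p = 1). The member median was -0.77 against -0.03 over all genes. The 11 falls in P1-CTCF-KO cells are therefore not shown to differ from the wild-type course.

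Among the other cell cycle genes 16 of 120 were higher and 5 lower from mesoderm to HPCs in P2-CTCF-KO cells, where 16.5% and 11.7% of all genes were. In P1-CTCF-KO cells 13 were higher and 17 lower, where 16.6% and 16.1% were. Rb1 and E2f2 rose in both knockouts (Rb1 by log2 4.33 ± 0.49 in P2-CTCF-KO and 4.44 ± 0.49 in P1-CTCF-KO, edgeR adjusted p = 4.1e-06 and 3.9e-06). Prim2, a primase subunit, rose in P2-CTCF-KO cells (1.54 ± 0.26, edgeR adjusted p = 0.00017). The E2F partner Tfdp2 rose in P1-CTCF-KO cells (1.70 ± 0.26, edgeR adjusted p = 9.4e-05), in P2-CTCF-KO cells (1.19 ± 0.24, edgeR adjusted p = 0.00089) and in wild-type cells (1.37 ± 0.25, edgeR adjusted p = 0.0019). Cdk4 fell in both (-1.04 ± 0.24 and -2.27 ± 0.32, edgeR adjusted p = 0.0025 and 3.9e-05), as did E2f5 (-1.19 ± 0.35 and -3.34 ± 0.57, edgeR adjusted p = 0.013 and 0.00022). In P2-CTCF-KO cells Mycn was the third lower gene (-1.30 ± 0.40, edgeR adjusted p = 0.016), and in P1-CTCF-KO cells it was the checkpoint kinase gene Atm (-1.14 ± 0.25, edgeR adjusted p = 0.0015).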

How the data were processed

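Poly(A)-minus RNA was sequenced from 23 libraries and aligned to mm9 with STAR by the authors, who deposited whole-number counts per gene from featureCounts, over exons and introns. Marked PCR duplicates were removed before counting. The library kit was directional, and the strand setting of the counting is not given in the sources used here. Tool versions are not given in the labels. The deposited ATAC-seq peak lists (MACS2, 1 merged list per stage) carry positions and a score column that was not used. The members and lists were chosen with earlier results of these data known. Groups follow the labels. Replicates are libraries of clonal lines, some from 1 clone, and for mESCs technical replicates, so p-values measure the spread between these libraries.

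Counts were tested with edgeR 4.0.16 in R 4.3.3 (TMM, filterByExpr with a minimum count of 10, quasi-likelihood F test, Benjamini-Hochberg over all genes tested). A gene was called where the adjusted p was below 0.05 and the log2 fold change exceeded 1 in size. CPM uses all counts, ribosomal entries included. Wild-type stages were fitted over wild-type libraries, genotypes within a stage, and knockout courses over mesoderm and HPC libraries. Alternatives were DESeq2 1.42.0, RLE size factors, no filter, no fold limit, no ribosomal or multi-locus entries (193), 1 fit of all libraries, libraries of a clone summed, each library left out, and clone as a replicate block. Clones were shared between stages, and the deviations of a clone's mesoderm and HPC libraries had r = -0.04 to 0.12 over 12543 genes in 9 clones. Replicate pairs differed beyond sampling noise (chi-square per gene 2.24 to 32.2 over 29 pairs).

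Named genes were, per comparison, up to 5 higher and 5 lower called members by smallest adjusted p (3 by smallest p where none was called), the D-type cyclins, the CDK inhibitors, and up to 3 higher and 3 lower other listed genes. Histone genes were found by their older names as RefSeq synonyms. Sgol1 (symbol not in the table) and Cdkn2d (entry at several loci) were left out of the lists. Peaks were matched to outermost start sites within 500 bp (Python 3.11.15, SciPy 1.17.1). The scripts were checked on simulated data.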

Additional observations from a re-analysis of the deposited data

Results flagged for a closer look

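In 6 of 100 series of values (46 members and 4 summed levels in the groups of 4 and 5 HPC libraries), 1 library stood far from the others, where chance alone picks about 1 in 20 such series. In P2-CTCF-KO HPCs, Ccnd1 was at 1.75 CPM in D2.1 (25 counts), with the next library at 0.388 CPM, and Ccnd3 was at 33.8 CPM in D10.1 (349 counts), with the next at 10.96 CPM. In wild-type HPCs, C8.1 was low for Kif23 (2.58 CPM, next 3.65 CPM) and for Cenpe (4.497 CPM, next 9.54 CPM). Ttk was high in B9.3-2 (4.23 CPM, next 3.18 CPM) and Ect2 was high in C6.1 (7.00 CPM, next 4.48 CPM).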

How the results depend on the processing

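Over 15 counts of members (13 comparisons and 2 peak lists) 274 alternatives were run, and 268 stayed within 1.5 times the main count. The 6 that did not each left out a library. With libraries left out in turn, counts ranged from 3 to 15 for wild-type mesoderm against mESCs, 9 to 18 for wild-type HPCs against mESCs, 7 to 13 for the P1-CTCF-KO course and 0 to 3 between the knockouts in HPCs, 4 to 6 for the wild-type and 5 to 8 for the P2-CTCF-KO step from mesoderm to HPCs, and stayed at 0 in the other genotype comparisons and both interactions. With clone as a replicate block the counts were 5 (wild-type), 6 (P2-CTCF-KO) and 11 (P1-CTCF-KO) for HPCs against mesoderm, and 0 for both interactions. Of 687 alternatives to the 35 named calls none reversed and 40 lost the call. For wild-type mesoderm against mESCs, DESeq2 called 1453 genes higher and 1216 lower where edgeR called 1386 and 1761, with 3 and 12 members in both. Over all genes, P2-CTCF-KO against wild-type mesoderm had 3 calls by edgeR, 164 by DESeq2, 431 with no filter and 18 with all libraries in 1 fit, the knockouts in mesoderm 0, 90, 267 and 5, and the P2-CTCF-KO interaction 2 by edgeR and 37 by DESeq2, with no member among them. The clone block gave 1817 calls in 7343 genes for wild-type HPCs against mesoderm, where the fit without it gave 3007 in 12899. The block fit held only mesoderm and HPC libraries, while the other fit also held the mESC libraries, so the genes past the filter differed. The part of the clone term itself was not tested. Low member counts in HPC libraries limit the genotype comparisons.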
